A study of Mus musculus with 30 samples.

Results

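Dut encodes dUTPase, the enzyme that removes dUTP from the nucleotide pool, and H1f2 encodes the linker histone H1.2. They were taken as the features whose platform gene symbol is Dut or H1f2, which gave 2 of 13027 features on the array, each with 1 probe (024M22 for Dut, gene 110074, and 010J12 for H1f2, gene 50708). Both had a value in all 15 blood samples. The pair was chosen for how its levels differed between the groups, so its levels and differences are given as a description, without a test.

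Leukocytes were taken from the peripheral blood of inbred DBA/2 mice. The series held 4 samples from untreated mice, and 4, 4 and 3 samples taken 1, 2 and 5 days after an intraperitoneal injection of 83 mg per kg cyclophosphamide, an alkylating drug toxic to dividing blood cell precursors. Each was hybridised in 2 technical replicates against pooled DBA/2 bone marrow, whose cell type label calls it untreated while its treatment label names the same drug and dose. Samples were harvested independently per the labels, which do not say how many animals gave a sample. Values are log2 ratios of blood over marrow, with base 2 assumed, and any difference between the dyes is part of each ratio. In bulk blood, more cells of a type and more RNA per cell cannot be told apart. Markers of B cells, T cells, monocytes and mature neutrophils were measured in the samples, with 6, 3, 6 and 7 genes tested.

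dUTPase splits dUTP into dUMP, the precursor that thymidylate synthase turns into dTMP, and so keeps uracil out of newly made DNA. Linker histones bind the DNA entering and leaving the nucleosome and help to fold chromatin. Most H1 subtypes, H1.2 among them, are made mainly in S phase together with the core histones, although H1.2 is also found in cells that no longer divide.

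Because the pair varied together, the 120 bases before each RefSeq start are shown for both genes and for H1f1, the only other linker histone that could be tested. They are on the plus strand of GRCm38.p6, at chr2:125247395-125247514 for Dut, chr13:23738687-23738806 for H1f2 and chr13:23763548-23763667 for H1f1. Capitals mark matches on either strand to 5 motifs: the H1 box (letters AAACACA), the CCAAT box, the TATA box (letters TATANA), the GC box (letters GGGCGG) and an E2F-type motif (letters TTCCCGC).
Dut: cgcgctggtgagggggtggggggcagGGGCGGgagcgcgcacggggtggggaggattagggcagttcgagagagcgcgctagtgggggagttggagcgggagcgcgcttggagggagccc
H1f2: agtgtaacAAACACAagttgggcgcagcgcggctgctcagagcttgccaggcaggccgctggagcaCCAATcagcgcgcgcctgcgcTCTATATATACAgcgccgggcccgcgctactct
H1f1: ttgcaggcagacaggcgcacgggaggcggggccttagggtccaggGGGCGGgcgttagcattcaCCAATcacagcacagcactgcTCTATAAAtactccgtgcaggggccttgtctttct
The H1f2 stretch holds the H1 box at 112 bases before the start, CCAAT at 54 and a run of overlapping TATANA matches from 33 to 27. The Dut stretch holds a GC box at 94 bases before the start and no other of these motifs. H1f1 shares CCAAT and TATANA with H1f2, but not the H1 box. In windows from 250 bases before to 50 after the start, the H1 box was found in 5 of 10 linker histone genes. Over all 32841 such windows the share with a match was 7.19% for the H1 box, 37.4% for CCAAT, 24.7% for TATANA, 35.7% for the GC box and 4.6% for TTCCCGC. The Dut window begins 17 bases inside the gene's annotated span, and Dut has 2 RefSeq transcripts. The Dut stretch shown, with its GC box, thus lies within that span. The H1f2 and H1f1 windows begin 250 bases before the annotated spans of their genes, so the stretches are not alike in position. None of the 5 motifs was matched in both the Dut and the H1f2 window, which says nothing about the factors that bind there.

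Dut, the dUTPase gene, stood closer to the marrow level in treated blood than in untreated blood. Its log2 ratio was -1.69, -1.44, -1.67 and -1.85 in untreated samples. At day 1 it was -0.44, -0.57, -0.81 and -0.30. All 4 day 1 samples lay above all untreated ones. At day 2 it was -1.60, -0.73, -1.03 and -1.11, and at day 5 it was -0.17, -0.73 and -0.49. One day 2 sample, replicate 1, lay within the untreated range, and all 3 day 5 samples lay above it. Marrow exceeded blood 3.17-fold in untreated samples. At day 1 this was 1.44-fold, then 2.17-fold on day 2 and 1.38-fold on day 5.

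H1f2, the linker histone gene, was higher in blood than in marrow in every sample, on the opposite side of the reference from Dut. Its log2 ratio was 2.35, 2.26, 2.71 and 2.49 in untreated samples. At day 1 it was 4.04, 4.22, 3.85 and 4.35. Again no day 1 sample came down to the untreated range. At day 2 it was 2.28, 3.37, 3.36 and 3.33, and at day 5 it was 4.21, 3.27 and 4.25. Day 2 replicate 1 lay within the untreated range and the other day 2 samples were close to each other, while day 5 replicate 2 lay below its group. Blood exceeded marrow 5.48-fold in untreated samples. At day 1 this was 17.3-fold, then 8.49-fold on day 2 and 15.02-fold on day 5.

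**Figure D1:**
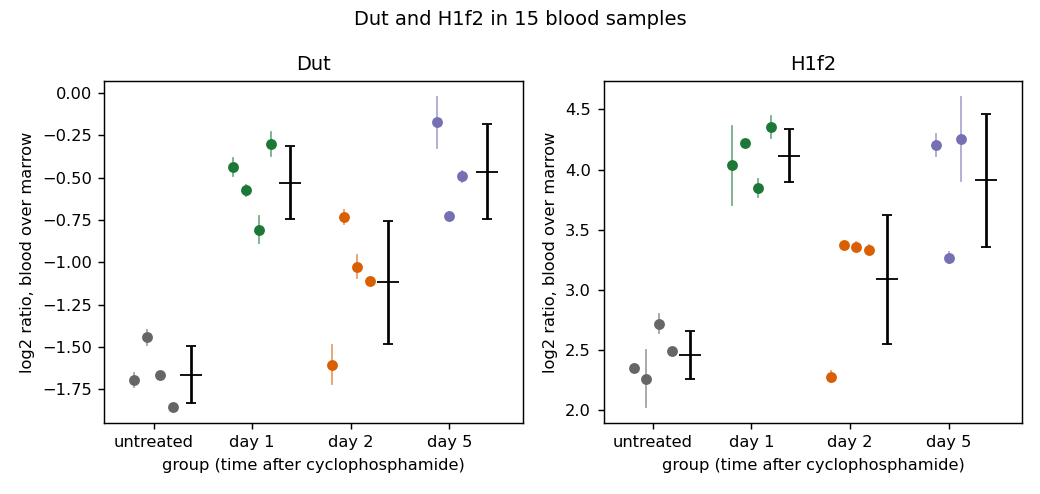
Log2 ratio of blood over marrow (vertical axis) of Dut and H1f2 in each of the 15 blood samples (points), by time after cyclophosphamide, with the group mean and SD. For both genes the day 1 and day 5 samples lie above all untreated samples, and day 2 replicate 1 lies within the untreated range.

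For Dut the untreated mean was -1.66 ± 0.17. The day 1 mean was -0.53 ± 0.22, the day 2 mean -1.12 ± 0.36 and the day 5 mean -0.46 ± 0.28 (SD, n = 4, 4, 4 and 3). Day 1 stood above untreated by 1.13 ± 0.18, day 2 by 0.55 ± 0.18 and day 5 by 1.20 ± 0.19 (log2, SE of the fit), or 2.19-fold, 1.46-fold and 2.30-fold. In order of level Dut ran from untreated through day 2 and day 1 to day 5. Day 1 and day 5 overlapped and differed by 0.07 ± 0.19 (95% interval -0.34 to 0.47), and day 2 overlapped with untreated and with day 1. Day 5 lay above day 2 by a near tie, with a lowest value of -0.7267 against a highest of -0.7325. The technical replicates of these samples differed by more, 0.052 and 0.083. The share of all tested features whose groups did not overlap was not counted.

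For H1f2 the untreated mean was 2.45 ± 0.20. The day 1 mean was 4.11 ± 0.22, the day 2 mean 3.09 ± 0.54 and the day 5 mean 3.91 ± 0.56 (SD, n = 4, 4, 4 and 3). Day 1 stood above untreated by 1.66 ± 0.25, day 2 by 0.63 ± 0.25 and day 5 by 1.46 ± 0.27, or 3.16-fold, 1.55-fold and 2.74-fold. In order of level H1f2 ran from untreated through day 2 and day 5 to day 1. Day 5 and day 1 overlapped and differed by -0.21 ± 0.27 (95% interval -0.78 to 0.37), and day 2 did not overlap with day 1 but did with untreated and with day 5. The order of day 1 and day 5 depended on the scaling: after quantile normalization the H1f2 means were 2.81, 3.68, 2.89 and 3.96 in the untreated, day 1, day 2 and day 5 groups, and the differences from untreated were 0.88 at day 1 and 0.083 at day 2.

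Set among all 6515 tested features by the signed difference from untreated, from the most positive down, H1f2 was number 13 from the top on day 1, number 171 on day 2 and number 3 on day 5. Dut was number 55, 277 and 15. At day 1, 4.60% of the tested features passed the limma test at an adjusted p under 0.05 (2.29% higher and 2.32% lower). On day 2 the share was 12.7% (4.83% higher and 7.84% lower), and on day 5 it was 1.09% (0.261% higher and 0.829% lower). The 3 comparisons share the untreated samples, and the pair was chosen on them. The H1f2 technical replicates differed by up to 0.71 (median 0.096), and those of Dut by up to 0.30 (median 0.083). The largest H1f2 technical difference exceeded its day 2 difference from untreated.

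A pair of samples carried much of the spread. Day 2 replicate 1 also had the fewest features with a value, 5650. Without it the day 2 difference from untreated was 0.71 for Dut and 0.90 for H1f2. Without day 5 replicate 2 the day 5 difference was 1.33 for Dut and 1.78 for H1f2.

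Across the 15 samples Dut and H1f2 varied together with a Pearson r of 0.936, and of 0.725 after each group's mean was removed. Of the 3561 other named genes with values in all samples, H1f2 was the one most correlated with Dut, and Dut was number 3 for H1f2. The median r over those genes was 0.0055 with Dut and 0.0043 with H1f2. The pair was chosen on its group levels in these same samples, which favours a high r and a high rank. All genes on an array share its hybridisation and scaling, and the samples fall into 4 groups, so the r is a description of these arrays.

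The genes most like H1f2 were Slc24a3, a sodium, potassium and calcium exchanger (r = 0.959), and Gatad1, a zinc finger protein (r = 0.956). After Dut came Trappc2, a subunit of a vesicle tethering complex (0.935), F2rl2, a thrombin receptor of mouse platelets (0.928), and Clu, the secreted chaperone clusterin (0.915). Derl1, Ipo11, Pcmt1 and St7 completed its 10 (0.909 to 0.900). After H1f2, the genes most like Dut were Ufsp1, a protease of the UFM1 modifier (0.897), Trappc2 (0.889), Slc24a3 (0.878), Clcn3, a chloride and proton exchanger (0.875), Gatad1 (0.867), Clu (0.864) and F2rl2 (0.846). Pdzk1ip1 and Cyb5a completed its 10 (0.842 and 0.834). The lists shared 5 genes, Trappc2, Slc24a3, Gatad1, Clu and F2rl2.

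Slc24a3 had a log2 ratio of 1.52, 1.21, 1.76 and 1.33 in untreated samples, 3.21, 3.13, 2.47 and 3.10 at day 1, 1.14, 2.13, 1.82 and 2.22 at day 2, and 3.03, 1.87 and 3.54 at day 5. Its lowest day 2 and day 5 samples were the same ones as for H1f2. Clu had 3.37, 3.27, 3.69 and 2.94 in untreated samples, 5.51, 5.08, 5.08 and 4.39 at day 1, 2.82, 4.33, 4.59 and 4.55 at day 2, and 5.37, 3.98 and 5.20 at day 5. Here too day 2 replicate 1 and day 5 replicate 2 were lowest in their groups. Ufsp1, whose r with Dut within groups was 0.202, had -1.04, -0.76, -0.87 and -1.06 in untreated samples, -0.04, 0.05, -0.13 and -0.12 at day 1, -0.40, -0.53, -0.41 and -0.57 at day 2, and 0.14, -0.08 and 0.19 at day 5. Its 4 day 2 samples lay close together, between the untreated and the day 1 samples.

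**Figure D2:**
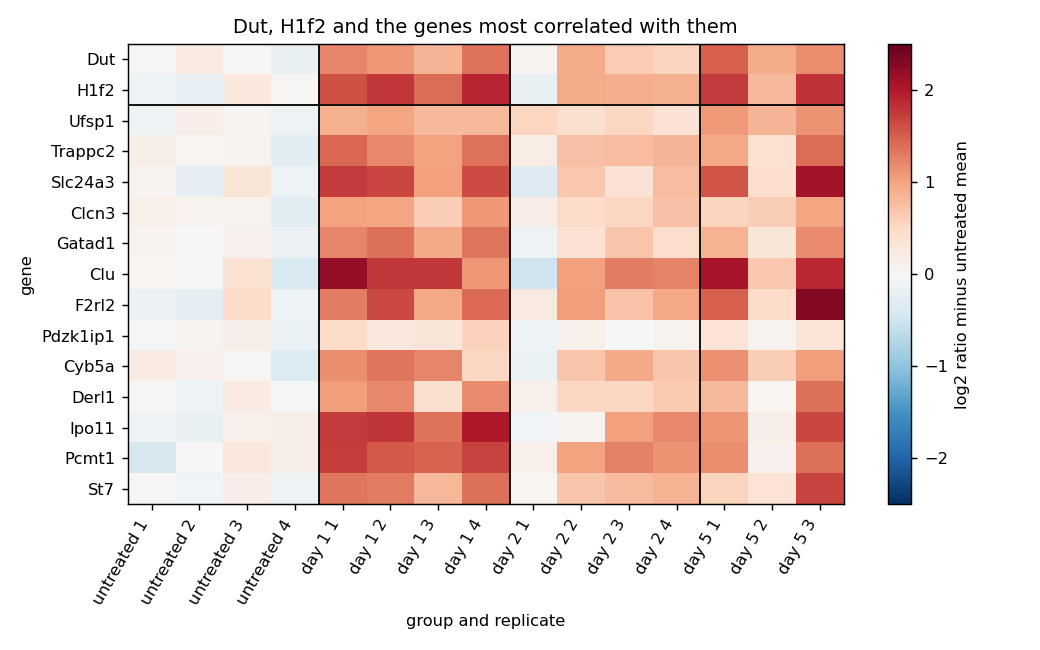
Log2 ratio minus the untreated mean (colour) of Dut, H1f2 and the genes most correlated with them (down the page) in each sample (across). Every gene lies above its untreated mean in every day 1 sample, and day 2 replicate 1 is the palest day 2 column for H1f2, Slc24a3 and Clu.

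Enzymes around dUTPase were set beside the share of all features called. For this and the later lists, the share of all features at an unadjusted p under 0.05 was not counted. Counts at that threshold therefore have no background, and "near" refers to the adjusted calls alone. Of 54 genes of deoxynucleotide supply, dUTP removal and uracil repair, 42 were on the array and 24 were tested. At day 1, 0 were called by limma (1 at an unadjusted p under 0.05), near the 4.60% of all features, and their median difference was -0.07, against 0.03 over all features. At day 2, Cmpk1, a UMP and CMP kinase, fell by 0.68 ± 0.18 (adjusted p = 0.0187 by limma) and 0 rose, so 4.17% were called against 12.7% of all features; the call was lost without untreated replicate 3, untreated replicate 4 or day 2 replicate 3. The list had a median of 0.07, against 0.06 over all features. At day 5, 0 were called by limma (6 at an unadjusted p under 0.05), near the 1.09% of all features, with a median of 0.03 against 0.0044.

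Tyms, the thymidylate synthase that uses the dUMP made by dUTPase, had -2.31, -0.92, -2.73 and -3.82 in untreated samples, -2.80, -3.01, -2.05 and -3.33 at day 1, -1.23, -0.78, -3.23 and -2.59 at day 2, and -1.80, -0.48 and -1.95 at day 5. Its groups overlapped, and its difference from untreated was -0.35 ± 0.59, 0.49 ± 0.59 and 1.04 ± 0.64 (adjusted p = 0.781, 0.642 and 0.414 by limma). Tk1, thymidine kinase, differed by -0.68, 0.62 and 0.33, and Rrm2, a subunit of ribonucleotide reductase, by -0.86, -0.33 and 0.0057, none of them called. Smug1, a glycosylase that removes uracil from DNA, differed by 0.22, 0.47 and 0.36, also not called. Over the 15 samples the r with Dut was 0.076 for Tyms, and 0.936 for H1f2, which was chosen together with Dut on these samples.

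Of 63 DNA replication genes on the list, 54 were on the array and 21 were tested, and 0 were called by limma at day 1, day 2 or day 5 (1, 3 and 2 at an unadjusted p under 0.05), against 4.60%, 12.7% and 1.09% of all features. At day 1 and day 5 a count of 0 is near that background. Their median differences were 0.07, 0.14 and 0.12. Pcna, the sliding clamp of the polymerases, differed by -0.18, 0.08 and -0.12 (adjusted p = 0.621, 0.826 and 0.813 by limma). The list's mean level had an r of 0.04 with Dut and -0.21 with H1f2.

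Among the relatives of H1f2, 1 linker histone could be tested. Of 10 further linker histones 5 were on the array; H1f4, H1f5 and H1f6 had no value in any sample and H1f7 in 1. H1f1 had 0.53, 0.16, 0.13 and -0.94 in untreated samples, 0.12, -0.26, 1.06 and 0.17 at day 1, 0.60, 0.50, 0.31 and 0.28 at day 2, and 0.62, 0.75 and 0.09 at day 5. Its groups overlapped, and its differences of 0.30, 0.45 and 0.52 did not pass (adjusted p = 0.596, 0.348 and 0.411 by limma). Probe sequences were not used here, so binding of one H1 subtype to the probe of another was not tested.

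Of 21 core histone genes 11 were tested. Probes naming several histone genes were not on this list. Of these, 032K03, naming 9 H3 genes, had group means of 0.76, -0.24, 0.75 and 0.34 in untreated, day 1, day 2 and day 5 samples. Its untreated samples ran from -0.30 to 1.27 and its day 1 samples from -0.75 to 0.18. The means of 020G24, naming 4 H2B and H3 genes, were 1.00, 1.12, 1.09 and 1.02. At day 1, H2ac4, an H2A gene, rose by 0.69 ± 0.19 (adjusted p = 0.0494 by limma) and H2ap, an H2A-related gene, fell by 0.54 ± 0.14 (adjusted p = 0.0446), so 18.2% of the list was called against 4.60% of all features. Both calls were lost when 1 of several single samples was left out, with adjusted p up to 0.167 for H2ac4 and 0.156 for H2ap. H2ap had 0.54, 0.53, 0.43 and 0.72 in untreated samples, -0.48, -0.28, -0.56 and -0.59 at day 2, and 1.23, 1.01 and 0.80 at day 5. Day 2 lay wholly below untreated and day 5 wholly above it, and the day 2 fall was 1.03 ± 0.14 (adjusted p = 2.0e-04 by limma). It was the 1 core histone called at day 2, 9.09% of the list against 12.7% of all features. At day 5, 0 core histones were called by limma (2 at an unadjusted p under 0.05), against 1.09% of all features.

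Of 29 genes of histone mRNA processing and histone deposition 8 were tested, with 0 called at day 1 and at day 5 by limma (2 and 4 at an unadjusted p under 0.05), near the 4.60% and 1.09% of all features. At day 2, when 2 of 8 were called against 12.7% of all features, Asf1a, a chaperone of H3 and H4, rose by 0.60 ± 0.14 (adjusted p = 0.00881, lost with technical replicate 2 alone or a robust trended prior), and Atrx, a remodeller that deposits H3.3, fell by 0.91 ± 0.17 (adjusted p = 0.00241). Slbp, which binds the stem-loop of replication-dependent histone mRNA, differed by 0.25, 0.32 and 0.23 and was not called.

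Of the cell division genes 40 were listed, 31 were on the array and 13 were tested, with 0 called at day 1 and at day 5 by limma (4 and 2 at an unadjusted p under 0.05), near the 4.60% and 1.09% of all features. At day 2, when 23.1% were called against 12.7% of all features, Cks2, a cyclin-dependent kinase subunit, rose by 0.78 ± 0.18 and Smc4, of condensin, by 0.51 ± 0.12 (adjusted p = 0.00878 and 0.00863), and Nusap1, a spindle protein, fell by 1.23 ± 0.35 (adjusted p = 0.0330, lost in 9 of the alternatives).

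**Figure D3:**
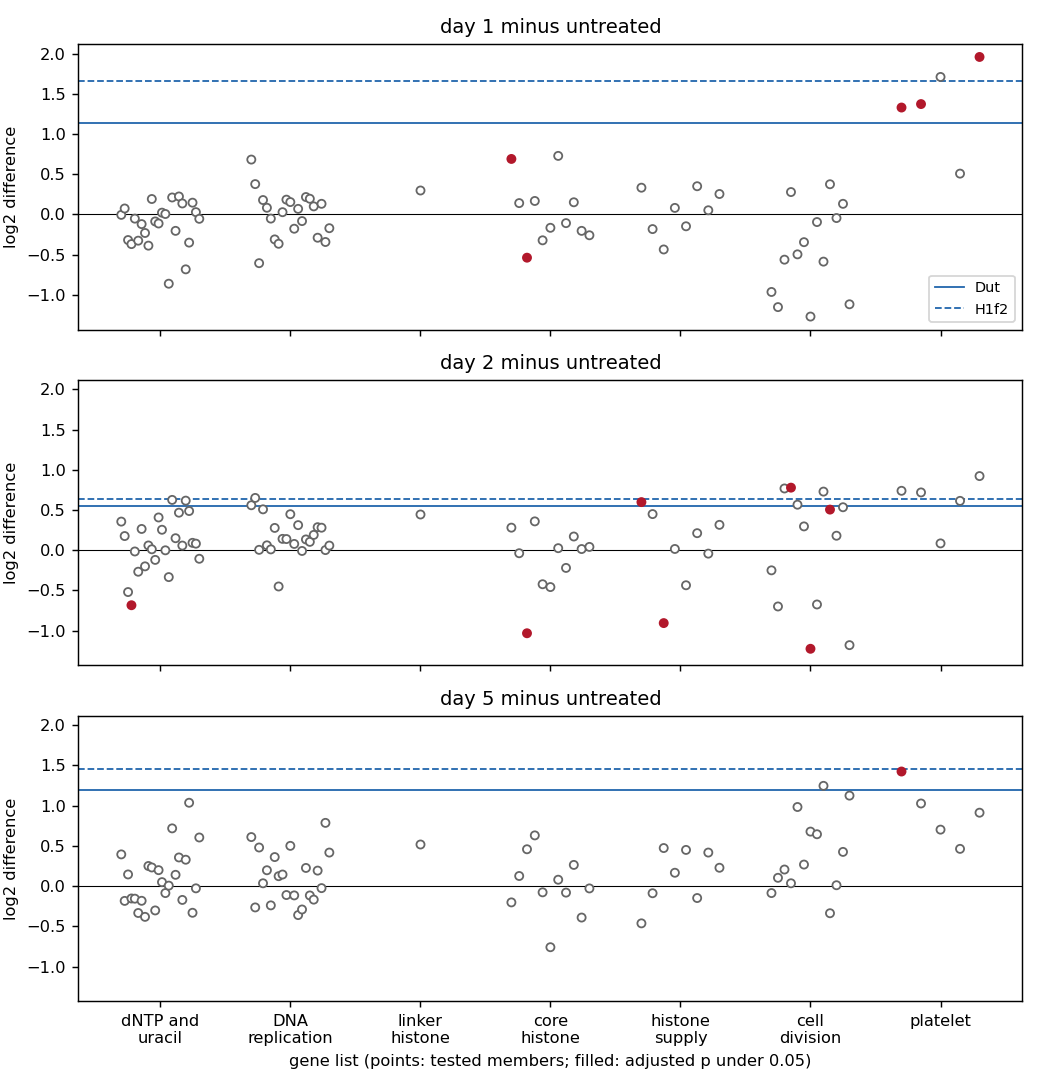
Log2 difference from untreated (vertical axis) of each tested member of 7 gene lists (points, filled where the adjusted p is under 0.05) at day 1, day 2 and day 5, with Dut (solid line) and H1f2 (dashed line). At day 1 the filled points are 3 platelet genes, which lie above the Dut line, and H2ac4 and H2ap.

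Between day 5 and day 2, Dut differed by 0.65 ± 0.19 and H1f2 by 0.82 ± 0.27, while 25.5% of tested features were called (12.8% higher and 12.7% lower). Of the deoxynucleotide and uracil genes, Umps, of UMP synthesis, rose by 0.71 ± 0.24 (adjusted p = 0.0439 by limma) and Cda, cytidine deaminase, by 0.66 ± 0.22 (adjusted p = 0.0374). Dck, deoxycytidine kinase, fell by 0.45 ± 0.14 (adjusted p = 0.0313) and Uck1, a uridine and cytidine kinase, by 0.42 ± 0.12 (adjusted p = 0.0222). Of the replication genes Rpa3, a subunit of the single-strand binding complex, rose by 0.78 ± 0.24 (adjusted p = 0.0233), and Cdc6, of origin licensing, and Pola2, of the primase complex, fell by 0.92 ± 0.25 and 0.67 ± 0.20 (adjusted p = 0.0123 and 0.0225). Of the histone lists 4 of 20 tested genes rose, H2ap, Atrx, Eri1 and Nap1l4, and Asf1a fell by 1.06 ± 0.15 (adjusted p = 9.5e-05). H2ap, by 1.49 ± 0.15, and Atrx, by 1.38 ± 0.19, had the largest of these rises. The calls of Umps, Cda, Dck, Uck1, Rpa3, Cdc6, Pola2 and Nap1l4 were each lost without at least 1 single sample. Of the cell division genes Ube2c, Nusap1 and Plk1 rose by 2.31, 1.90 and 1.32, and Smc4 and Cks2 fell by 0.84 and 0.74.

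Platelet transcripts were set beside the pair. Of 15 platelet and megakaryocyte genes 11 were on the array and 5 were tested; Gp1bb had no value in any sample, Gp9 in 1, Gp5 and Selp in 5, Itgb3 in 8 and Clec1b in 10. The mean log2 ratio of the 5 ran from 1.78 to 1.97 in untreated samples and from 3.12 to 3.36 on day 1. On day 2 it ran from 2.01 to 2.99 and on day 5 from 1.97 to 3.30. At day 5 its lowest sample was replicate 2, and at day 2 replicate 1, as for H1f2. In other samples the mean of the 5 did not follow H1f2. Day 2 replicate 2 was nearly as low (2.11 against 2.01), where H1f2 was highest of its group (3.37). At day 1 the platelet mean was highest in replicate 3 (3.36), where H1f2 was lowest (3.85). Single genes differed in this. F2rl2, like H1f2, was highest at day 2 in replicate 2 (1.77) and lowest at day 1 in replicate 3 (1.68). Itga2b was instead highest at day 2 in replicate 3 (3.70) and lowest at day 1 in replicate 1 (3.11). The r of the platelet mean with H1f2 was 0.887 over all samples and 0.664 within groups, and with Dut 0.779 and 0.311. Over all samples the genes were not alike: r with Dut and with H1f2 was 0.846 and 0.928 for F2rl2, 0.788 and 0.873 for Itga2b, 0.698 and 0.829 for Treml1, and 0.588 and 0.740 for Pf4, but 0.022 and -0.074 for Ppbp. The part of platelet RNA in the levels of Dut and H1f2 was not tested.

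At day 1, 3 of the 5 rose and 0 fell (2.29% and 2.32% of all tested features), with a list median of 1.37 against 0.03 over all features. Itga2b, the platelet integrin alpha IIb, had 2.62, 2.57, 2.79 and 2.15 in untreated samples, 3.11, 4.29, 4.07 and 4.13 at day 1, 2.72, 3.22, 3.70 and 3.36 at day 2, and 3.56, 3.14 and 3.97 at day 5. Day 1 and day 5 lay wholly above untreated, and the day 1 rise was 1.37 ± 0.26 (adjusted p = 0.0133 by limma); it was 0.58 after quantile normalization (adjusted p = 0.217). Treml1, a receptor of platelet granules, rose by 1.96 ± 0.39 at day 1 (adjusted p = 0.0159, and 0.0613 after quantile normalization), and F2rl2, which is also among the genes most like the pair, by 1.33 ± 0.30 (adjusted p = 0.0250, and 0.0508 with a replicate block). The day 1 call was lost without day 1 replicate 2 for all 3 genes. Pf4 and Ppbp, chemokines of platelet granules named after their values were seen, differed by 1.71 and 0.51 (adjusted p = 0.116 and 0.559). At day 2, 0 of the 5 were called (3 at an unadjusted p under 0.05), against 12.7% of all features. With 5 genes a count of 0 cannot be told from that share. At day 5, 1 of the 5 rose, against 0.261% of all features. It was F2rl2, by 1.42 ± 0.33 (adjusted p = 0.0479 by limma). That call was lost in most alternatives, among them leaving out day 5 replicate 1 or replicate 3.

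Markers of other cell types were compared with the pair over the same 15 samples, as a description. The list means had an r with Dut and with H1f2 of 0.051 and -0.060 for erythroid genes, -0.21 and -0.19 for mature neutrophil genes, 0.23 and 0.11 for neutrophil precursor genes, -0.25 and -0.19 for monocyte genes, -0.54 and -0.52 for B cell genes, -0.54 and -0.33 for NK and cytotoxic genes, and 0.046 and 0.29 for T cell genes. Cell division genes had -0.099 and -0.37. Within groups these r were -0.13 and -0.64 for cell division genes, -0.24 and -0.54 for the histone lists, and 0.033 and -0.45 for replication genes. They were -0.0093 and -0.42 for nucleotide genes, 0.018 and 0.49 for T cell genes, and -0.15 and 0.31 for NK and cytotoxic genes. Erythroid and B cell genes had -0.090 and -0.35, and -0.055 and -0.30. Mature neutrophil, neutrophil precursor and monocyte genes had -0.17 and -0.039, 0.22 and 0.031, and -0.28 and 0.059.

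Some of these markers were called by limma in the same comparisons. At day 1, 3 of 6 monocyte genes fell, against 2.32% of all features: Lyz2, lysozyme, by 1.01 (adjusted p = 0.0246), Mpeg1, perforin-2, by 0.85 (adjusted p = 0.0124) and Adgre1, a macrophage surface receptor, by 0.67 (adjusted p = 0.0429). In the monocyte list 1 gene lay above untreated, by 0.09, and was not called. Of 6 B cell genes Fcmr, the IgM Fc receptor, fell by 0.75 (adjusted p = 0.0183). In the B cell list 2 genes lay above untreated, by up to 0.38, and were not called. The Lyz2, Adgre1 and Fcmr calls were each lost without untreated replicate 4, among other samples.

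At day 2, 5 of 7 mature neutrophil genes rose, against 4.83% of all features, led by S100a9, Csf3r and Trem1 at 1.71, 1.56 and 1.51. The lowest difference in the neutrophil list was -0.59, not called. In the same comparison 5 of 6 monocyte genes fell, against 7.84%, led by Ms4a6c, Adgre1 and Mpeg1 at -1.73, -1.20 and -1.05. Of 5 erythroid genes 2 fell: Alas2, of haem synthesis, by 2.83, and Bnip3l, of mitochondrial clearance in red cell precursors, by 0.60. In that list 1 gene lay above untreated, by 1.31, and was not called. Of 6 B cell genes Cd72 and Fcmr fell by 1.38 and 0.69, while 2 lay above untreated, by up to 0.64, and were not called. Of 5 NK and cytotoxic genes Gzmk, Nkg7 and Klrd1 fell by 0.84, 0.69 and 0.57 (adjusted p = 0.0447, 0.00283 and 0.0485 by limma). Gzmk had a value in 3 of the 4 day 2 samples. Of 3 T cell genes Cd4 rose by 0.53 (adjusted p = 0.0421 by limma), and the lowest difference in that list was -0.47, not called. Among all 26 calls of named genes at day 2, 16 passed under every alternative.

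At day 5, 3 of 6 B cell genes fell, against 0.829% of all features. Ms4a1, Fcmr and Cd22 had log2 changes of -1.56, -1.47 and -1.18. The other 3 lay above untreated, by up to 0.44, and were not called. Of 5 NK and cytotoxic genes Nkg7 and Klrd1 fell by 1.13 and 1.08. Between day 5 and day 2, 2 of 5 erythroid genes rose, Alas2 by 3.57 and Bnip3l by 1.12, against 12.8% of all features. Of 6 monocyte genes 4 rose, led by Ms4a6c, F13a1 and Adgre1 at 1.23, 1.19 and 0.95. Of 7 mature neutrophil genes 4 fell, against 12.7% of all features, led by Trem1, Csf3r and S100a9 at -2.42, -2.24 and -2.22. Nkg7, of 5 NK and cytotoxic genes, and Cd4, of 3 T cell genes, fell by 0.44 and 0.58. Of 6 B cell genes 1 rose, Cd72 by 1.81, and 3 fell, led by Ms4a1 and Fcmr at -0.90 and -0.79. The part of these cell types in the levels of Dut and H1f2 was not tested.

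**Figure D4:**
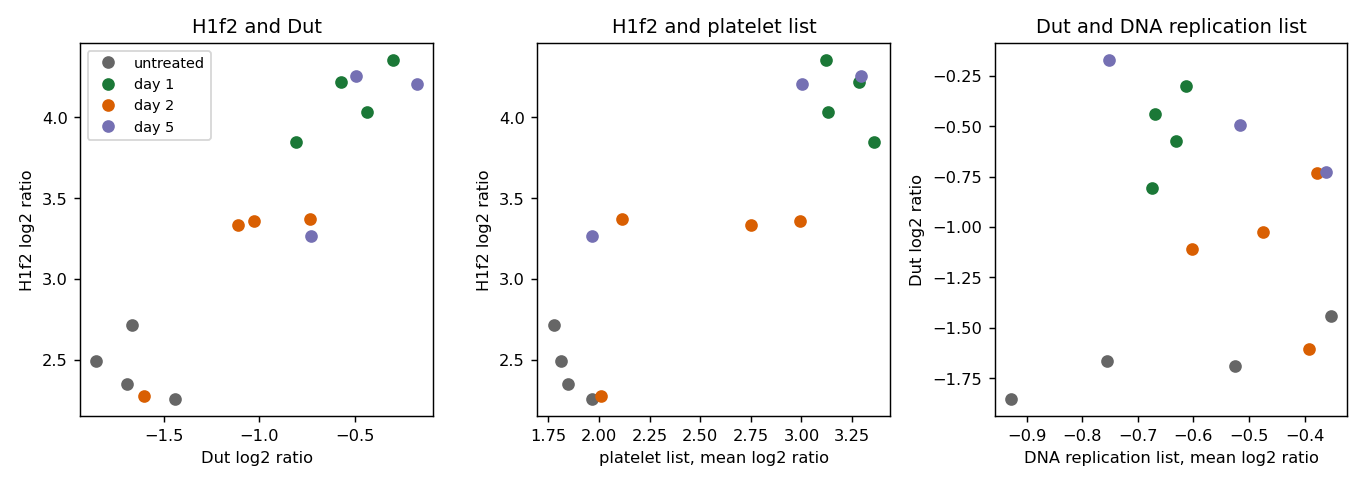
H1f2 against Dut, H1f2 against the mean of the 5 platelet genes, and Dut against the mean of the 21 replication genes, each as log2 ratios with 1 point per sample, coloured by group. Points rise together in the first and second panels (r = 0.936 and 0.887) and show little relation in the third (r = 0.04).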

How the data were processed

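Per the labels, each array paired Cy5-labelled blood leukocyte RNA with Cy3-labelled pooled bone marrow RNA. No source used here states how the authors scanned, corrected and normalized the arrays. The deposited values were taken as log2 ratios of blood over marrow; base 2 is an assumption. The cell type label calls the marrow pool untreated, while its treatment label names cyclophosphamide. The 2 technical replicates of a sample were averaged, probes were named through the platform annotation, and probes of 1 gene were averaged. Features with values in at least 3 of 4 samples (2 of 3 at day 5) were tested with limma 3.58.1 (R 4.3.3). The fit gave each group its own mean over all 15 samples, with Benjamini-Hochberg adjustment within each comparison, and features were called at an adjusted p under 0.05. The procedure was tested on simulated data. The number of arrays limits the precision.

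Members and lists were chosen with earlier results of these data known. The genes named were set by a rule in 5 sets. They are Dut and H1f2; the 10 named genes with the highest Pearson r with each member, among features with values in all 15 samples; the tested linker histones, with Tyms, Tk1, Dck, Dctd, Rrm1, Rrm2, Samhd1, Ung, Smug1, Pcna, Mcm2 to Mcm7 and Slbp wherever tested (1 further gene of this set is not reported here); per comparison and list of nucleotide, replication, histone and cell division genes, the 8 called members with the largest absolute change; and per comparison and cell type marker list, the 3 such called members. Genes named outside it are said to be so. Alternatives were quantile normalization, median centring, other filters on missing values, each technical replicate alone, a replicate block, a robust trended prior, the 2 groups alone and leaving out each sample.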

Additional observations from a re-analysis of the deposited data

Results flagged for a closer look

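In 81 groups of 4 samples, covering the pair, the genes most like it and the list means, 6 held a sample far from the other 3. Chance gives about 1 in 20 for independent groups. These groups share samples, and the genes most like the pair were picked for their r in them. The 6 therefore cannot be judged against that rate. Day 5, with 3 samples, was not covered. H1f2 was 2.28 in day 2 replicate 1, against 3.33 to 3.37 in the other day 2 samples, and Clu was 2.82 in the same sample, against 4.33 to 4.59. In day 1 replicate 3, Slc24a3 was 2.47, against 3.10 to 3.21, and St7 was 0.77, against 1.25 to 1.31. Clcn3 was -0.22 in untreated replicate 4, against 0.15 to 0.20. The mean of the deoxynucleotide and uracil genes was -0.57 in day 2 replicate 3, against -0.46 to -0.44.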

How the results depend on the processing

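Dut and H1f2 kept the sign of each difference from untreated, and of day 5 minus day 2, under every alternative run. After quantile normalization the H1f2 difference was 0.88 at day 1 and 0.083 at day 2, and the platelet mean 0.68 and 0.21. The features called were then 462 at day 1 (182 higher and 280 lower, against 149 and 151) and 111 at day 5, and the calls were 3 nucleotide and 2 replication genes at day 2 and 2 nucleotide genes between day 5 and day 2. With values in all 15 samples, 116 features were called at day 5, 2 nucleotide genes at day 2, and 2 nucleotide and 5 replication genes between day 5 and day 2. With no filter, 162 features and 0 histone genes were called at day 1, and 2 nucleotide genes between day 5 and day 2. Technical replicate 1 alone gave 0 histone genes at day 1, 3 nucleotide and 1 replication gene at day 2 and 1 nucleotide gene at day 5; technical replicate 2 alone gave 2 nucleotide genes at day 2, and 2 nucleotide and 5 replication genes between day 5 and day 2. The 2 groups alone gave 578 features at day 1, 34 at day 5 and 935 between day 5 and day 2, with 0 nucleotide genes and 1 replication gene in the last. The cause of these shifts was not tested.

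With a replicate block, 131 features and 0 histone genes were called at day 1, and 1 nucleotide gene between day 5 and day 2. The 21 same-numbered pairs of samples from different groups had r from -0.346 to 0.217, and 7 exceeded 0.1. The 63 different-numbered pairs had r from -0.402 to 0.410, and 19 exceeded 0.1. The numbers thus gave no sign of pairing, which this check cannot exclude.

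Leaving out each sample in turn gave 60 to 438 features at day 1, 529 to 942 at day 2, 27 to 224 at day 5 and 1196 to 1856 between day 5 and day 2. Nucleotide genes called ran from 0 to 3 at day 2, 0 to 2 at day 5 and 0 to 4 between day 5 and day 2; replication genes from 0 to 1 at day 2 and 1 to 6 between day 5 and day 2; histone genes from 0 to 2 at day 1, 3 to 4 at day 2, 0 to 1 at day 5 and 4 to 6 between day 5 and day 2. Dut differed by 1.06 to 1.23, 0.42 to 0.71, 1.05 to 1.33 and 0.49 to 0.79 in the same 4 comparisons, H1f2 by 1.58 to 1.75, 0.54 to 0.90, 1.28 to 1.78 and 0.55 to 1.15, the platelet mean by 1.33 to 1.41, 0.44 to 0.77, 0.64 to 1.30 and 0.020 to 0.68, and the cell division mean by -0.59 to -0.22, -0.15 to 0.28, 0.27 to 0.63 and 0.20 to 0.56. Of 89 calls of named genes, 46 passed under every alternative. Each gene has 1 probe, so single probes could not be compared.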
